A study of Homo sapiens with 24 samples.

Results

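The levels of 10 genes for surface ligands that tumor cells show to lymphocytes and macrophages were examined in U87-T glioblastoma cells that had lost DAXX or ATRX, with and without the topoisomerase inhibitor etoposide. The set was given as a list of names (CD70, CD274, PDCD1LG2, CD276, CD47, PVR, MICA, MICB, ULBP1 and ULBP2) and was found by symbol among 57736 genes of the count table. U87-T cells are U87 glioblastoma cells transduced with TERT, and the WT control cells also carried an empty Cas9 lentivirus vector. DAXX_KO and ATRX_KO are CRISPR knockouts of this background in which an ALT phenotype (alternative lengthening of telomeres) was selected, and each knockout line was a clonal survivor, so that clone and genotype cannot be told apart. The DAXX series and the ATRX series each held their own WT cells, and each genotype was sampled in control (untreated in the sample labels, DMSO in the figures of the study) and after etoposide, with 3 libraries in each of the 8 groups. All groups shared the TERT transgene. The dose and time of etoposide for these libraries are not given in the sources used here.

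The members fall into 4 roles. CD70 is a TNF superfamily ligand that engages CD27 on T and B cells. CD274 (PD-L1) and PDCD1LG2 (PD-L2) bind the inhibitory receptor PD-1, CD276 (B7-H3) is a B7 family checkpoint protein abundant in many solid tumors, and CD47 is the signal that restrains engulfment by macrophages through SIRPA. PVR (CD155) binds TIGIT, CD96 and CD226 on T and NK cells. MICA, MICB, ULBP1 and ULBP2 are stress ligands of the activating receptor NKG2D on NK cells and are known to be raised by DNA damage signaling in many cell types. RNA levels were measured here, not protein on the cell surface.

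Library totals ran from 6928950 to 13298557 counts, and a floor of 3 counts equals 0.215 to 0.407 CPM (counts per 1000000 of a library, TMM scaled over the 24 libraries). DAXX mRNA was 34.5 ± 1.27 CPM (SD, n = 3) in WT control and 5.93 ± 1.08 in DAXX_KO control cells, and ATRX mRNA was 190 ± 5.08 CPM in WT control and 79.4 ± 5.74 in ATRX_KO control cells of the ATRX series. The DAXX_KO libraries carry a tag for an ATRX knockout, but ATRX mRNA was higher in them (233 ± 14.4 CPM in WT control, 393 ± 26.6 in DAXX_KO control), so the titles were followed. The mesenchymal glioma genes VIM and CD44 were between 344 and 6090 CPM in all libraries. Of the 4 mesenchymal markers listed (with FN1 and TNC), 2 were higher and 2 lower in DAXX_KO control at an FDR of 0.05, beside 26.7% and 26.6% of all genes. In ATRX_KO control 3 of them were lower, beside 21%. None of the 8 blood cell markers passed 1.9 CPM in any library, and none of the 4 epithelial markers passed 2.65 CPM. The myeloid gene ITGAM was at or below 0.0842 CPM in control and at 0.253 to 1.89 CPM with etoposide, and its part in the results was not tested. The T and NK cell markers CD3E and NKG7 and the keratin genes KRT5 and KRT20 were each at or below 0.359 CPM. All 10 ligand genes passed the filter on low counts in each fit, with 12 (PDCD1LG2) to 1933 (CD47) counts in a library.

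The promoters of ULBP1 and ULBP2 are shown because these neighbors on chromosome 6 rose together with etoposide. RefSeq promoters (GRCh38.p14) were matched for 8 of the 10 genes, and the 250 bases before the start were searched on both strands for 8 motifs. CD70 and PDCD1LG2 had no match and were not searched. ULBP1 (ENSG00000111981, chr6:150285079-150294851 on GRCh37, plus strand) has its window at chr6:150284829-150285078 on GRCh37, and ULBP2 (ENSG00000131015, chr6:150263150-150270371, plus strand) at chr6:150262900-150263149, both upstream of the annotated gene. Capitals mark GC boxes (GGGCGG or its complement), a CCAAT box in ULBP2 and a match to the NF-kB consensus in ULBP1, and no marked matches overlap.
ULBP1: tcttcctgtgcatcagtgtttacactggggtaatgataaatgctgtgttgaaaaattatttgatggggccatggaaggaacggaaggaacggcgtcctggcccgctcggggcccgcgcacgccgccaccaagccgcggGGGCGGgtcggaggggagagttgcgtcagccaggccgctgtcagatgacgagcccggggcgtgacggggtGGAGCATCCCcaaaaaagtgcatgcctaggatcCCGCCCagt
ULBP2: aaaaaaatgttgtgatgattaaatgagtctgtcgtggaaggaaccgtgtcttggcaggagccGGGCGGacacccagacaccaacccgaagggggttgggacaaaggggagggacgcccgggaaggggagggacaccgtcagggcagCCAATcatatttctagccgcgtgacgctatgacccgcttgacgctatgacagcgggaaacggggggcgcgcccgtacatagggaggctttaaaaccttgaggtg
Among 35116 promoters of this length, 42.6% held a GC box, 32% a CCAAT box and 9.96% the NF-kB consensus. No p53 half-site consensus (5.57% of all promoters), AP-1 site (TGANTCA, 6.57%), cAMP response element (TGACGTCA, 1.65%) or TATA box (TATAAA, 10.7%) was found in either window. The 2 windows were identical at 46.5% of aligned positions.

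MICA (ENSG00000204520, chr6:31367561-31383092, plus strand) and MICB (ENSG00000204516, chr6:31462658-31478901, plus strand) had windows identical at 82.7% of aligned positions. Each held a heat shock element (GAANNTTC, in 5.78% of all promoters), shown in capitals within 30 bases at chr6:31371226-31371255 for MICA and chr6:31465772-31465801 for MICB, because the genes share it while MICA was called with etoposide in WT cells and MICB was not. Both stretches lie inside the annotated genes, since the annotation holds longer transcripts.
MICA: ccagcccactgGAATTTTCtcttccaagcg
MICB: ccaggccgctaGAATTTTCtcttctgaacg

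**Figure D1:**
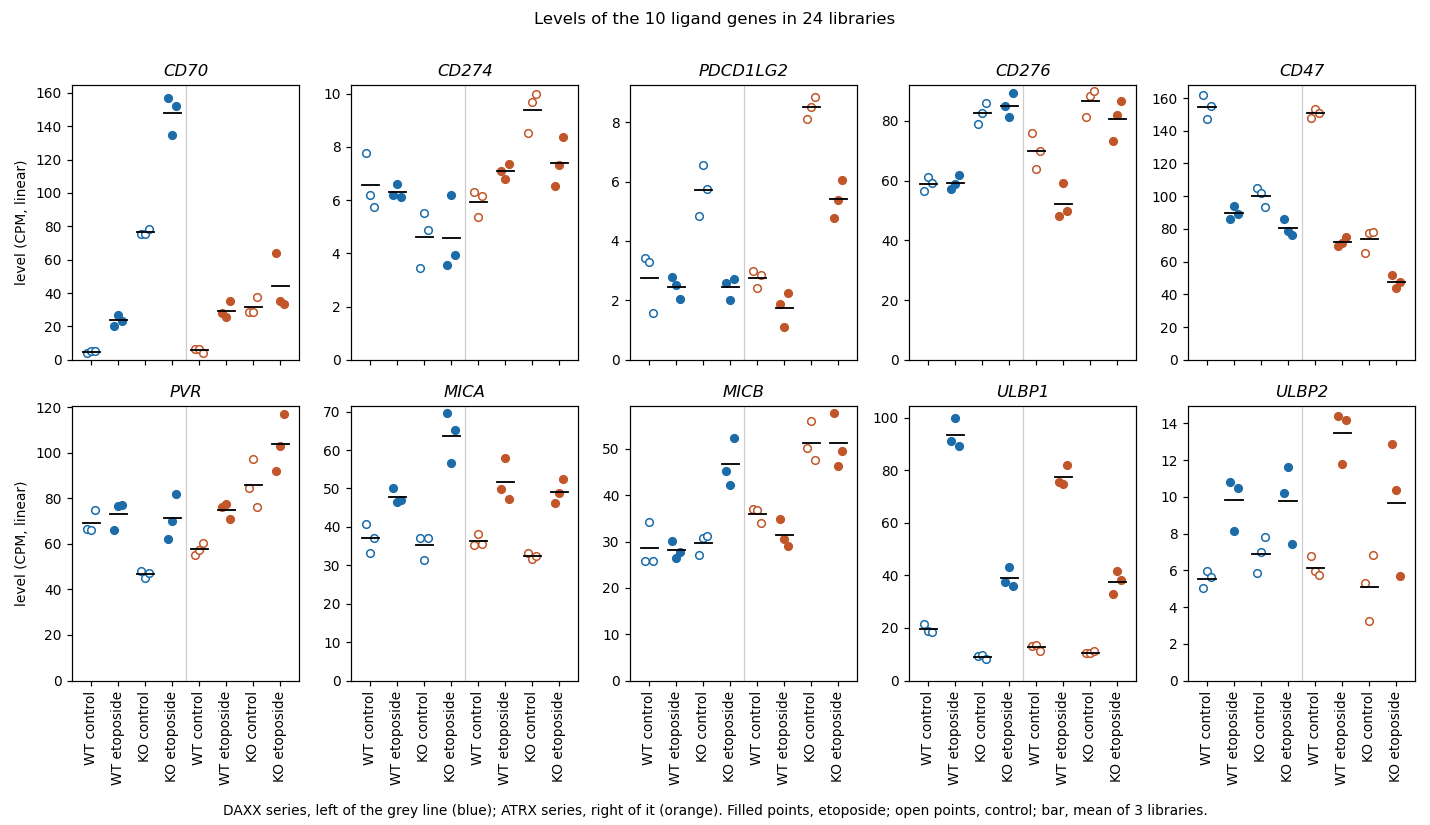
Levels in CPM (linear axes from 0) of the 10 ligand genes in each of 24 libraries, by genotype and treatment, with open points for control, filled points for etoposide and a bar at the mean of 3 libraries. CD70 was lowest in the WT control groups and highest in DAXX_KO cells with etoposide (148 CPM), while ULBP1 was highest in the WT cells with etoposide (93.7 and 77.4 CPM).

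The first question was which ligands differed between knockout and WT cells without etoposide. In DAXX_KO control cells 3 members were higher (CD70, PDCD1LG2, CD276), beside 26.7% of 15247 genes at an FDR of 0.05, 3 were lower (ULBP1, CD47, PVR), beside 26.6%, and 4 were not called. In ATRX_KO control cells 6 were higher (CD70, PDCD1LG2, CD274, PVR, MICB, CD276), beside 20.8% of 16371 genes, CD47 was lower, beside 21%, and 3 were not called. Over all genes tested, the 3 knockout libraries did not overlap the 3 WT libraries for 60% of genes in DAXX_KO and 50.9% in ATRX_KO. The median log2 fold change of the members was -0.01 in DAXX_KO (all genes 0.02) and 0.41 in ATRX_KO (all genes 0.02), with a median size of 0.54 (all genes 0.44) and 0.55 (all genes 0.36). The study states that its experiments were done in biological replicates, but its RNA-seq methods do not say how the libraries of a group were grown. The p-values measure the spread between these libraries only. Each p below is an edgeR quasi-likelihood p adjusted over all genes tested. Fewer cells with a transcript and less transcript per cell cannot be told apart in these bulk samples.

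CD70 (ENSG00000125726, chr19:6583194-6604114, minus strand) ranged from 4.14 to 157 CPM over the 24 libraries. WT control cells of the DAXX series held 4.14, 5.16 and 5.01 CPM of CD70 and DAXX_KO control cells 75.5, 75.4 and 78.6 CPM. In the ATRX series the libraries held 6.38, 6.19 and 4.29 CPM in WT control and 28.4, 28.9 and 37.8 CPM in ATRX_KO control. Every knockout library was above every WT control library, and the DAXX_KO libraries were all above the ATRX_KO libraries. The fold was 16.1 in DAXX_KO (log2 4.01 ± 0.12 SE, edgeR adjusted p = 7.53e-15) and 5.63 in ATRX_KO (log2 2.49 ± 0.25, edgeR adjusted p = 4.74e-07).

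With etoposide CD70 was 20.5, 27 and 23.5 CPM in DAXX series WT cells and 27.8, 25.5 and 35.3 CPM in WT cells of the ATRX series. All 6 WT libraries with etoposide were above all 6 WT control libraries. CD70 rose 5.04-fold (log2 2.33 ± 0.14, edgeR adjusted p = 2.57e-11) and 5.3-fold (log2 2.41 ± 0.25, edgeR adjusted p = 3.08e-07). DAXX_KO cells with etoposide held 157, 135 and 152 CPM of CD70, all above DAXX_KO control, and the rise was 1.94-fold (log2 0.96 ± 0.09, edgeR adjusted p = 1.54e-08). ATRX_KO cells with etoposide held 64, 35.4 and 33.2 CPM, overlapping ATRX_KO control. There the log2 fold change was 0.46 ± 0.21 (edgeR adjusted p = 0.0727, 95% interval -0.01 to 0.94), and without the library at 64 CPM it was 0.10. This ATRX_KO comparison passed the threshold with all 24 libraries in 1 model (0.47, adjusted p = 0.0244) and with 3 other settings.

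The log2 response of CD70 to etoposide was smaller in knockout than in WT cells of the same series, with an interaction of -1.38 ± 0.17 in DAXX_KO (edgeR adjusted p = 1.76e-05) and -1.94 ± 0.33 in ATRX_KO (edgeR adjusted p = 0.000879). On the linear scale the order was the other way in the DAXX series, where means rose from 4.77 ± 0.551 to 23.7 ± 3.22 in WT and from 76.5 ± 1.79 to 148 ± 11.7 in DAXX_KO cells. Under etoposide CD70 was still 6.2-fold higher in DAXX_KO than in WT cells (log2 2.63 ± 0.1, edgeR adjusted p = 1.13e-13). In ATRX_KO it was 1.46-fold higher (log2 0.55 ± 0.21, edgeR adjusted p = 0.04), and this call was lost without ATRX_KO etoposide replicate 1 (0.19, adjusted p = 0.338), without WT etoposide replicate 1 (0.54, adjusted p = 0.0989) and without WT etoposide replicate 2 (0.48, adjusted p = 0.125). From low to high the 8 group means ran from 4.77 in WT control (DAXX series) over 5.62 in WT control (ATRX series), 23.7 and 29.5 in the WT groups with etoposide, 31.7 and 44.2 in ATRX_KO control and etoposide, to 76.5 and 148 in DAXX_KO control and etoposide. The 2 WT control groups overlapped, as did each pair of neighbors from the DAXX series WT with etoposide to ATRX_KO with etoposide, and the DAXX_KO groups overlapped with no other.

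CD274 (ENSG00000120217, chr9:5450503-5470566, plus strand) held 3.44 to 10 CPM in the 24 libraries. In control its libraries held 7.77, 6.21 and 5.75 CPM in WT and 3.44, 5.5 and 4.89 CPM in DAXX_KO cells of the DAXX series, against 6.3, 5.36 and 6.14 CPM in WT and 8.54, 9.68 and 10 CPM in ATRX_KO cells of the ATRX series. Each DAXX_KO library was below its WT and each ATRX_KO library above its WT. The rise in ATRX_KO passed the test (1.59-fold, log2 0.67 ± 0.15, edgeR adjusted p = 0.0019), and the DAXX_KO value did not (log2 -0.52 ± 0.24, edgeR adjusted p = 0.0724, 95% interval -1.06 to 0.03), though it did with all 24 libraries in 1 model (adjusted p = 0.0359) and without DAXX_KO etoposide replicate 2 (adjusted p = 0.0446). On leaving out single libraries it ranged from -0.66 to -0.35. The knockout effects on CD274 differed from each other in control (DAXX_KO effect minus ATRX_KO effect -1.19 ± 0.27, edgeR adjusted p = 0.00109). None of the 4 etoposide responses of CD274 passed the test. The log2 values were -0.05, 0.01, 0.28 and -0.35 in DAXX series WT, DAXX_KO, ATRX series WT and ATRX_KO cells. Their 95% intervals, in this order, were -0.57 to 0.47, -0.56 to 0.58, -0.09 to 0.64 and -0.7 to -0.01. Treated libraries lay above control in ATRX series WT cells and below control in ATRX_KO cells, without overlap. The ATRX_KO response passed without ATRX_KO control replicate 1 (-0.42, adjusted p = 0.047) or etoposide replicate 3 (-0.46, adjusted p = 0.0379).

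PDCD1LG2 (ENSG00000197646, chr9:5510531-5571282, plus strand), next to CD274 on chromosome 9, rose in both knockouts in control. It held 3.43, 3.28 and 1.59 CPM in WT and 4.84, 6.57 and 5.75 CPM in DAXX_KO control cells (2.04-fold, log2 1.03 ± 0.28, edgeR adjusted p = 0.00433), with no overlap. In the ATRX series it held 3, 2.43 and 2.86 CPM in WT and 8.12, 8.52 and 8.86 CPM in ATRX_KO control cells (3.08-fold, log2 1.62 ± 0.21, edgeR adjusted p = 9.91e-06). With etoposide the knockouts differed from each other. In DAXX_KO cells PDCD1LG2 fell to 2.59, 2 and 2.71 CPM (log2 -1.22 ± 0.29, edgeR adjusted p = 0.00125), overlapping WT with etoposide (2.79, 2.52 and 2.04 CPM). Its response there differed from that of WT by -1.05 (95% interval -2.03 to -0.07, edgeR adjusted p = 0.109), which was not called. In contrast, ATRX_KO cells held 4.77, 5.38 and 6.06 CPM and stayed 3.03-fold above WT with etoposide (log2 1.6 ± 0.24, edgeR adjusted p = 3.15e-05). Under etoposide the knockout effects on PDCD1LG2 differed by -1.64 ± 0.38 (edgeR adjusted p = 0.00138), whereas in control the difference was -0.59 (95% interval -1.31 to 0.13, edgeR adjusted p = 0.195), or -0.87 without DAXX series WT control replicate 3 (adjusted p = 0.0403) and -0.41 without replicate 1 (adjusted p = 0.454). The fall with etoposide in ATRX_KO was -0.66 ± 0.2 (edgeR adjusted p = 0.0102). The fall in WT cells of the ATRX series was -0.64 ± 0.25 (edgeR adjusted p = 0.0376) and was lost under DESeq2 (adjusted p = 0.0782), 3 other settings and without 3 libraries in turn (WT control replicates 1 and 3, and WT etoposide replicate 2 with -0.42).

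CD276 (ENSG00000103855, chr15:73976307-74006855, plus strand) was higher in each knockout. Knockout control cells held 79.1 to 86.1 CPM (DAXX_KO) and 81.3 to 89.9 CPM (ATRX_KO), above the 56.4 to 61.3 CPM and 63.9 to 76.1 CPM of their WT cells. The rise was 1.4-fold in DAXX_KO (log2 0.49 ± 0.07, edgeR adjusted p = 1.53e-05) and 1.24-fold in ATRX_KO (log2 0.31 ± 0.09, edgeR adjusted p = 0.0134), the latter lost without WT control replicate 2 (0.25, adjusted p = 0.0779). With etoposide the gap was 1.43-fold and 1.51-fold (edgeR adjusted p = 8.37e-06 and 7.92e-05). Etoposide lowered CD276 in WT cells of the ATRX series (log2 -0.4 ± 0.1, edgeR adjusted p = 0.00194), from 63.9 to 76.1 CPM down to 48 to 59.1 CPM. The values in DAXX series WT, DAXX_KO and ATRX_KO cells lay between -0.11 and 0.05 and were not called.

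CD47 (ENSG00000196776, chr3:107761938-107810709, minus strand) was lower in each knockout and lower after etoposide. WT control libraries held 162, 147 and 155 CPM and DAXX_KO control libraries 105, 102 and 93.5 CPM. In the ATRX series WT control libraries held 148, 153 and 151 CPM and ATRX_KO control libraries 65.4, 77.5 and 78.1 CPM. CD47 fell by 0.63 ± 0.07 on the log2 scale in DAXX_KO (edgeR adjusted p = 5.54e-07) and by 1.03 ± 0.08 in ATRX_KO (edgeR adjusted p = 3.45e-08), with no overlap in either series. Etoposide brought WT cells to 85.8, 94.1 and 89.1 CPM (log2 -0.77 ± 0.07, edgeR adjusted p = 2.33e-08) and to 69.7, 71.3 and 75.2 CPM (log2 -1.04 ± 0.08, edgeR adjusted p = 1e-08). These WT values with etoposide lay below all WT control values. The fall of CD47 with etoposide was also called in DAXX_KO (86.2, 78.6 and 76 CPM, log2 -0.31 ± 0.07, edgeR adjusted p = 0.00159) and in ATRX_KO cells (51.8, 43.8 and 47.4 CPM, log2 -0.64 ± 0.08, edgeR adjusted p = 8.63e-06). It was smaller than in WT by 0.46 ± 0.1 in DAXX_KO (edgeR adjusted p = 0.00545) and by 0.4 ± 0.12 in ATRX_KO (edgeR adjusted p = 0.0288). The ATRX value ranged from 0.32 to 0.47 on leaving out single libraries and lost its call in 7 of the 12 (all 3 WT control, WT etoposide replicates 1 and 2, and replicate 1 of both ATRX_KO groups). With etoposide the DAXX_KO value against WT was -0.17 and not called (edgeR adjusted p = 0.0673), and it passed with RLE size factors (-0.19, adjusted p = 0.0407), with at least 10 counts in every library (-0.19, adjusted p = 0.0364) and without DAXX_KO etoposide replicate 1 (-0.22, adjusted p = 0.0387). In ATRX_KO CD47 stayed 1.54-fold lower than in WT with etoposide (log2 -0.63 ± 0.09, edgeR adjusted p = 1.43e-05).

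PVR (ENSG00000073008, chr19:45147098-45169430, plus strand) moved in opposite directions in the knockouts. It held 66.6, 66 and 74.8 CPM in WT and 48.2, 44.8 and 47 CPM in DAXX_KO control cells (log2 -0.56 ± 0.1, edgeR adjusted p = 8.28e-05). It held 55.2, 57.2 and 60.2 CPM in WT and 84.6, 97.3 and 76.1 CPM in ATRX_KO control cells (log2 0.58 ± 0.1, edgeR adjusted p = 0.000157). The groups did not overlap in either series, and the difference of the knockout effects was -1.15 ± 0.15 (edgeR adjusted p = 7.2e-07). With etoposide DAXX_KO cells reached 62.2, 70.2 and 81.9 CPM, overlapping WT with etoposide (66, 76.7 and 77 CPM, log2 -0.04, edgeR adjusted p = 0.745). The rise in DAXX_KO was 1.54-fold (log2 0.62 ± 0.1, edgeR adjusted p = 2.6e-05) against 1.07-fold in WT (edgeR adjusted p = 0.391), an interaction of 0.52 ± 0.14 (edgeR adjusted p = 0.0147). In the ATRX series PVR rose in WT to 76.3, 77.6 and 70.8 CPM (log2 0.4 ± 0.1, edgeR adjusted p = 0.00224). ATRX_KO with etoposide held 92.1, 103 and 117 CPM, where the rise of 0.27 ± 0.1 (edgeR adjusted p = 0.0315) was lost without ATRX_KO control replicates 1 or 3 or etoposide replicates 2 or 3 (0.17 to 0.27). The 60 tested neighbors of PVR on chromosome 19 had a median response of 0.63 in WT cells of the ATRX series, above that of PVR itself. CEACAM19 on the same strand and CEACAM16-AS1 on the other overlap PVR and held 238 and 770 counts over the 24 libraries, against 18261 for PVR, and the strand setting of the counting is not given in the sources used here. Of the 2433 stretches of 75 bases at the end of the PVR transcripts, 848 (34.9%) also occur in ENSG00000279095, so the PVR counts are uncertain to the extent that reads were split between them.

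ULBP1 had the largest log2 response to etoposide of the 4 NKG2D ligands in each genotype. In WT control cells it held 21.5, 18.9 and 18.6 CPM (DAXX series) and 13.2, 13.4 and 11.2 CPM (ATRX series). With etoposide the WT libraries held 91.3, 100 and 89.2 CPM and 75.4, 75 and 81.9 CPM. ULBP1 rose 4.8-fold (log2 2.26 ± 0.1, edgeR adjusted p = 1.76e-13) and 6.23-fold (log2 2.64 ± 0.11, edgeR adjusted p = 1.95e-12), with no overlap with control. DAXX_KO cells went from 9.29, 9.66 and 8.08 CPM to 37.5, 43.4 and 35.9 CPM (4.35-fold, log2 2.12 ± 0.12, edgeR adjusted p = 1.13e-11). ATRX_KO cells went from 10.4, 10.3 and 11.2 CPM to 33.1, 41.7 and 38.1 CPM (3.51-fold, log2 1.81 ± 0.11, edgeR adjusted p = 6.98e-10). All 6 knockout libraries with etoposide stayed below all 6 WT libraries with etoposide.

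With etoposide ULBP1 was 2.42-fold lower in DAXX_KO than in WT (log2 -1.27 ± 0.09, edgeR adjusted p = 7.73e-10) and 2.09-fold lower in ATRX_KO (log2 -1.07 ± 0.1, edgeR adjusted p = 1.26e-07). The series differed in control. There ULBP1 was already 2.19-fold lower in DAXX_KO (log2 -1.13 ± 0.12, edgeR adjusted p = 2.88e-07), whereas in ATRX_KO the log2 value was -0.24 (95% interval -0.51 to 0.03, edgeR adjusted p = 0.119), and the knockout effects differed by -0.89 ± 0.17 (edgeR adjusted p = 0.000179). The log2 response of ULBP1 was smaller in ATRX_KO than in WT (interaction -0.83 ± 0.15, edgeR adjusted p = 0.00158), and the DAXX_KO interaction was -0.14 (95% interval -0.5 to 0.22, edgeR adjusted p = 0.611).

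ULBP2, at 3.23 to 14.4 CPM, also rose in WT cells, from 5.05 to 5.98 CPM up to 8.15 to 10.8 CPM in the DAXX series (1.78-fold, log2 0.83 ± 0.2, edgeR adjusted p = 0.00109) and from 5.72 to 6.76 CPM up to 11.8 to 14.4 CPM in the ATRX series (2.22-fold, log2 1.15 ± 0.26, edgeR adjusted p = 0.00104). The WT groups did not overlap. In the knockouts its libraries spread more and overlapped between treatments. The response was 0.51 ± 0.19 in DAXX_KO (edgeR adjusted p = 0.0303), lost under DESeq2 (0.54, adjusted p = 0.0606), 2 other settings and without DAXX_KO control replicates 1 or 2 or etoposide replicates 1 or 2 (0.36 to 0.52). In ATRX_KO it was 0.9 ± 0.27 (edgeR adjusted p = 0.0106), lost without control replicate 2 or etoposide replicate 1 (0.64 each). No knockout effect on ULBP2 was called, and the value with etoposide in ATRX_KO was -0.51 (95% interval -1.09 to 0.06), or -0.76 without ATRX_KO etoposide replicate 1 (adjusted p = 0.0235) and -0.24 without replicate 3 (adjusted p = 0.417). Of the 426 stretches of 75 bases at the end of the ULBP2 transcripts, 7 also occur in RAET1L, whose level was at or below 0.588 CPM in all libraries.

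MICA held 40.7, 33.2 and 37.2 CPM in WT control and 37.2, 31.4 and 37 CPM in DAXX_KO control cells, and 35.4, 38.2 and 35.5 CPM and 33.2, 31.6 and 32.3 CPM in WT and ATRX_KO control cells. No knockout effect on MICA was called in control (log2 -0.07 and -0.16). Etoposide raised MICA in each genotype. It rose to 50.2, 46.4 and 47 CPM in WT (1.3-fold, edgeR adjusted p = 0.00279) and to 69.6, 56.5 and 65.2 CPM in DAXX_KO cells (1.82-fold, edgeR adjusted p = 4.82e-07), and to 49.8, 57.9 and 47.3 CPM in WT (1.44-fold, edgeR adjusted p = 7.98e-05) and 46.2, 48.8 and 52.5 CPM in ATRX_KO cells (1.51-fold, edgeR adjusted p = 3.84e-05). The DAXX_KO libraries with etoposide were above all other libraries but ATRX series WT etoposide replicate 2, which lay between them. Their response exceeded that of WT by 0.48 ± 0.14 (edgeR adjusted p = 0.0286), a call lost on scaling by library totals (0.37, adjusted p = 0.0939) and without DAXX_KO control replicate 2, DAXX_KO etoposide replicate 1, WT control replicates 1 or 3 or WT etoposide replicates 2 or 3 (0.40 to 0.48). The ATRX interaction was 0.07 (95% interval -0.23 to 0.36).

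MICB, whose window before the start resembled that of MICA, was not called with etoposide in WT cells. It held 25.7, 34.2 and 25.7 CPM in control and 30.1, 26.4 and 27.8 CPM with etoposide in WT cells of the DAXX series (log2 -0.01, 95% interval -0.28 to 0.27), and 37.1, 36.7 and 33.9 CPM against 34.8, 30.6 and 29.1 CPM in the ATRX series (log2 -0.17, 95% interval -0.41 to 0.07). DAXX_KO cells went from 27.2, 30.7 and 31.3 CPM to 45.3, 42.3 and 52.3 CPM (1.57-fold, log2 0.65 ± 0.12, edgeR adjusted p = 8.15e-05), with no overlap, and the interaction was 0.66 ± 0.17 (edgeR adjusted p = 0.0116). ATRX_KO cells held 50.1, 56 and 47.5 CPM in control and 57.7, 46.4 and 49.5 CPM with etoposide, above WT in both treatments (1.43-fold in control, edgeR adjusted p = 0.000561, and 1.59-fold with etoposide, edgeR adjusted p = 4.66e-05). MICB was higher than WT in ATRX_KO in control and etoposide, and in DAXX_KO with etoposide (1.65-fold, edgeR adjusted p = 3.2e-05), while the DAXX_KO value in control was 0.06 (95% interval -0.21 to 0.34). The difference of the knockout effects in control was -0.45 ± 0.16 (edgeR adjusted p = 0.0314), lost on scaling by library totals (-0.33, adjusted p = 0.116) and without any of 4 libraries (ATRX_KO control replicate 2, ATRX series WT control replicate 3, DAXX_KO control replicate 1, or DAXX series WT control replicate 2 with -0.32). No stretch of 75 bases at the end of MICA or MICB transcripts was shared with another gene.

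**Figure D2:**
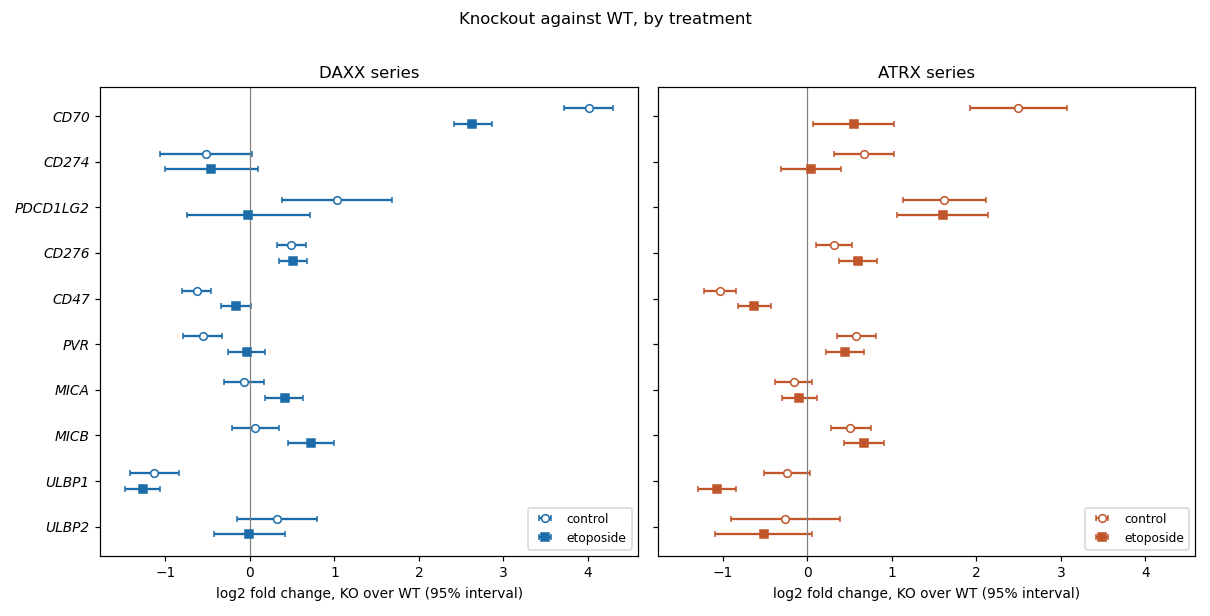
Log2 fold change of knockout over WT for each ligand gene in each series, in control (open circles) and with etoposide (filled squares). Bars are 95% intervals from the standard error of the edgeR fit and 8 residual degrees of freedom. CD70 lies farthest from 0 in control in both series (4.01 and 2.49), and PVR lies on opposite sides of 0 in control (-0.56 and 0.58).

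With etoposide 4 members were higher in DAXX_KO than in WT (CD70, CD276, MICA, MICB), beside 27.9% of all genes, and ULBP1 was lower, beside 25.2%. In ATRX_KO 5 were higher (CD70, PDCD1LG2, CD276, PVR, MICB), beside 23% of all genes, and 2 were lower (ULBP1, CD47), beside 22.9%. The libraries did not overlap for 58.3% and 55.2% of all genes in these comparisons. Set against each other in control, the knockout effects were higher in DAXX_KO than in ATRX_KO for CD70 and CD47 (beside 17% of 16674 genes) and lower for PVR, ULBP1, CD274 and MICB (beside 17.2%). With etoposide they were higher for CD70, CD47 and MICA (beside 17.7%) and lower for PVR and PDCD1LG2 (beside 16.8%). The largest of these with etoposide was that of CD70, at 2.06 ± 0.25 (edgeR adjusted p = 3.77e-07).

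**Figure D3:**
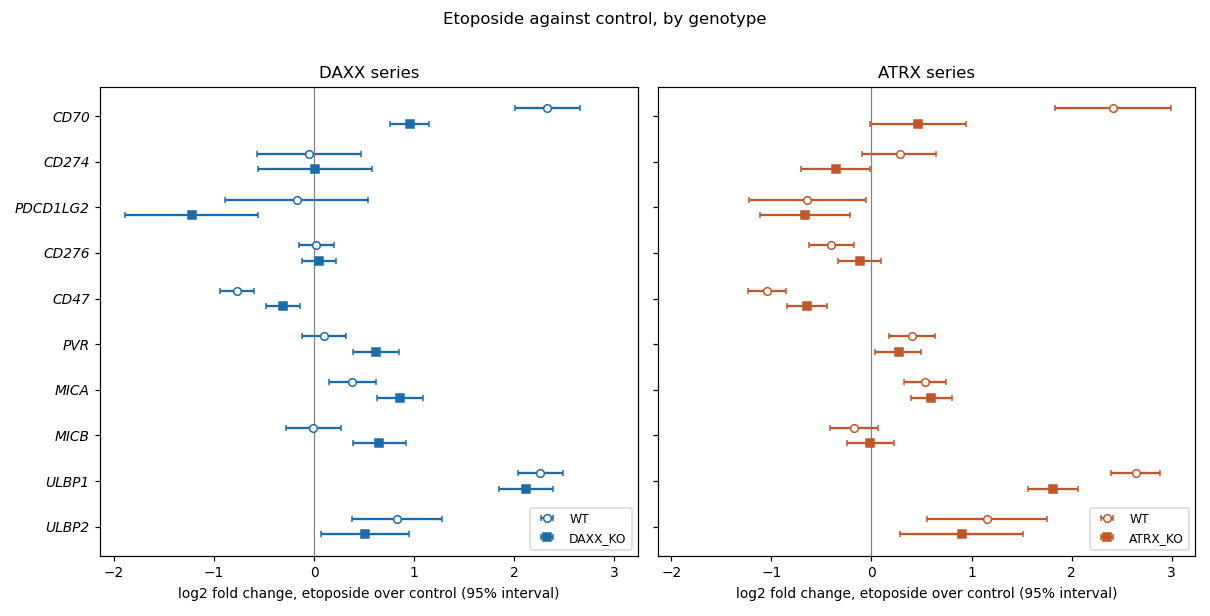
Log2 fold change of etoposide over control for each ligand gene, in WT (open circles) and knockout cells (filled squares) of each series. Bars are 95% intervals from the standard error of the edgeR fit and 8 residual degrees of freedom. CD70 (2.33 and 2.41) and ULBP1 (2.26 and 2.64) rose most in WT cells, and the CD70 values of the knockouts (0.96 and 0.46) lie below those of WT.

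In answer to etoposide, 4 members rose in DAXX series WT cells (CD70, ULBP1, ULBP2, MICA), beside 29.6% of all genes, and CD47 fell, beside 30.6%. In ATRX series WT cells 5 rose (the same 4 and PVR), beside 31.7%, and 3 fell (CD47, PDCD1LG2, CD276), beside 29.8%. In DAXX_KO cells 6 rose (CD70, ULBP1, ULBP2, MICA, MICB, PVR), beside 26.8%, and 2 fell (CD47, PDCD1LG2), beside 27.8%. In ATRX_KO cells 4 rose (ULBP1, ULBP2, MICA, PVR), beside 24.3%, and 2 fell (CD47, PDCD1LG2), beside 25.2%. Treated and control libraries did not overlap for 66.7%, 68.6%, 58.2% and 53.8% of all genes in these 4 comparisons. The response was above that of WT in DAXX_KO for CD47, PVR, MICB and MICA (beside 8.38% of all genes) and below it for CD70 (beside 5.79%), where CD47 fell less and the other 3 rose more. In ATRX_KO it was above that of WT for CD47 (beside 8.36%) and below it for CD70 and ULBP1 (beside 7.64%). Scaling by library totals alone moved the median of all genes from 0.016 to 0.201 (log2) in DAXX_KO against WT control, and changed the calls there from 4078 higher and 4063 lower to 5537 and 2826, so that fold changes are stated relative to the TMM scale. On library totals the MICA value in that comparison turned from -0.07 to 0.11, and ULBP2 passed the test (0.5, adjusted p = 0.047).

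Genes of the same families were examined beside the members. Of 7 other B7 family ligands 4 could be tested, and in WT cells all 4 rose with etoposide in the DAXX and 3 in the ATRX series, beside 29.6% and 31.7% of all genes. ICOSLG, the ligand of the costimulatory receptor ICOS, went from 7.07, 7.85 and 7.21 CPM to 43.2, 42.2 and 44.1 CPM in WT cells of the DAXX series (log2 2.56 ± 0.14, edgeR adjusted p = 7.41e-12) and from 5.99, 7.2 and 8.25 CPM to 62.1, 54.5 and 62.6 CPM in the ATRX series (log2 3.09 ± 0.17, edgeR adjusted p = 1.3e-10). It reached 12, 11.8 and 16 CPM in ATRX_KO (interaction -1.95 ± 0.26, edgeR adjusted p = 0.000109) and 26.3, 23.9 and 29.7 CPM in DAXX_KO cells, 1.63-fold below WT with etoposide (log2 -0.7 ± 0.12, edgeR adjusted p = 6.21e-05). VSIR, an inhibitory B7 protein, rose in WT cells from at most 0.461 CPM, near the floor, to 1.92 to 3.04 CPM. VSIR is counted in the rises above, but it passed the filter only through groups where it was higher, so no p is given. Of 17 other TNF superfamily ligands, 5 could be tested in the DAXX and 7 in the ATRX series. TNFSF9 (4-1BB ligand, chr19:6531037-6535935) and TNFSF14 (LIGHT, chr19:6661264-6670599) flank CD70 on chromosome 19. TNFSF9 rose with etoposide in each genotype (log2 2.34, 2.23, 2.55 and 2.23 in DAXX series WT, DAXX_KO, ATRX series WT and ATRX_KO cells) and was higher in each knockout in control (1.58 ± 0.24 and 0.95 ± 0.29, edgeR adjusted p = 1.75e-05 and 0.0149). TNFSF14 held at most 0.168 CPM in WT and 0.94 to 2.15 CPM in ATRX_KO control cells of the ATRX series. Its WT values were below the floor, and it passed the filter only through groups where it was higher, so no p is given. TNFSF14 could not be tested in the DAXX series. TNFSF13 (APRIL) was higher in DAXX_KO control (1.68 ± 0.57, edgeR adjusted p = 0.0177) and TNFSF12 (TWEAK) lower in ATRX_KO control (-2.33 ± 0.53, edgeR adjusted p = 0.00198). TNFSF10 (TRAIL) rose with etoposide in each genotype too, by 1.08 to 2.57 (edgeR adjusted p = 2.76e-05 to 0.0405).

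Of the 4 nectins related to PVR, NECTIN4 was at or below 0.245 CPM, near the floor, in each control library. It was at 4.19 to 13.6 CPM in each library with etoposide. NECTIN4 passed the filter only through the groups with etoposide, so no p is given. NECTIN3 fell in each genotype (log2 -0.73, -0.29, -0.61 and -0.22). NECTIN1 was lower in ATRX_KO control (-2.4 ± 0.3, edgeR adjusted p = 6.55e-06) and rose there with etoposide (0.88 ± 0.33, edgeR adjusted p = 0.035). Of the 4 other NKG2D ligands, ULBP3 and RAET1L were near 0 and could not be tested. RAET1E and RAET1G, which also bind NKG2D, were not called with etoposide in WT cells. RAET1G rose in DAXX_KO (log2 0.68 ± 0.2, edgeR adjusted p = 0.00725) and ATRX_KO (0.54 ± 0.21, edgeR adjusted p = 0.0382), and RAET1E fell in ATRX_KO (-0.68 ± 0.15, edgeR adjusted p = 0.00135).

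**Figure D4:**
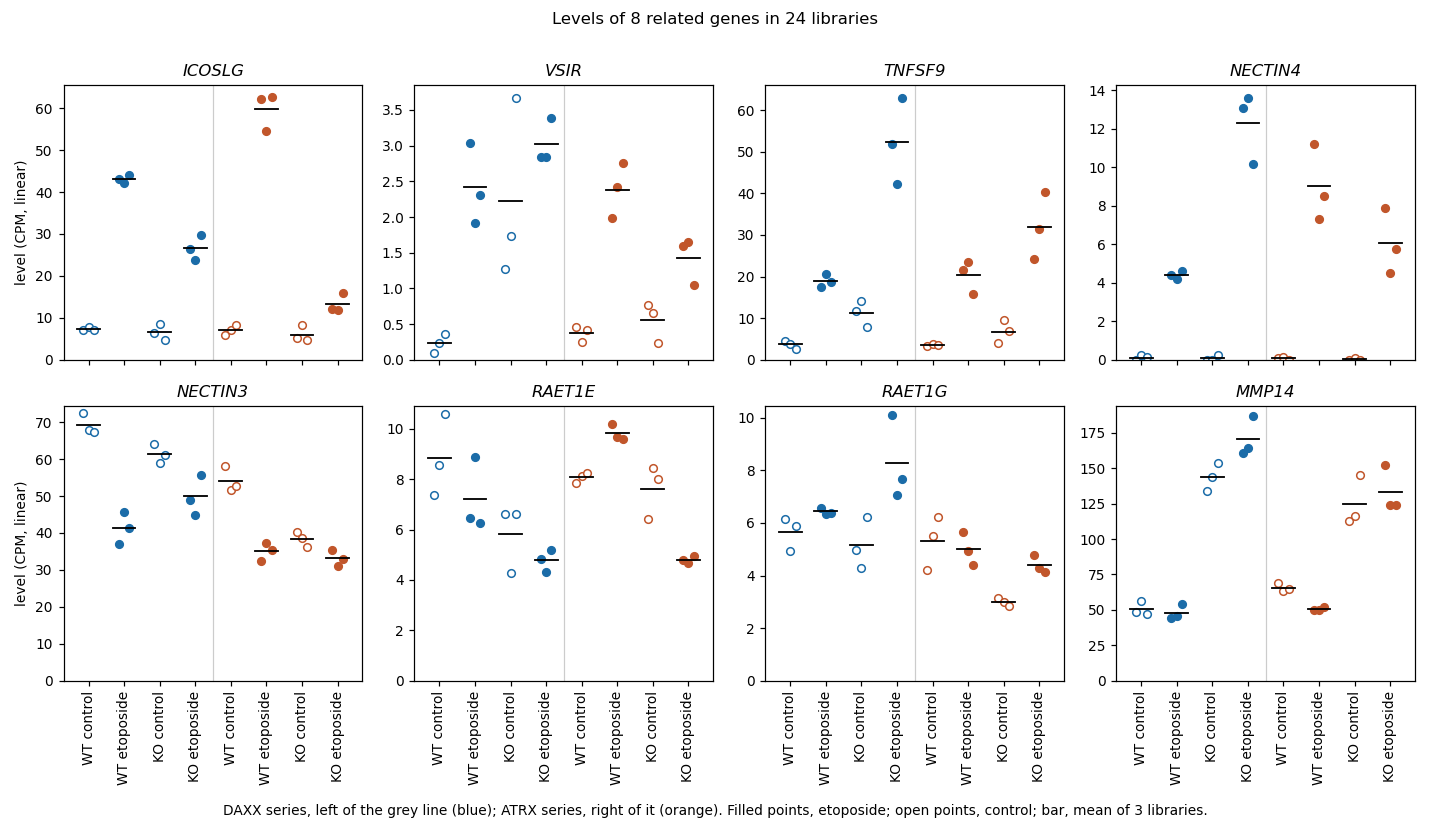
Levels in CPM (linear axes from 0) of 8 related genes in each of 24 libraries, by genotype and treatment, with open points for control, filled points for etoposide and a bar at the mean of 3 libraries. ICOSLG, TNFSF9 and NECTIN4 were higher in every etoposide library than in every control library of the same genotype, and MMP14 was higher in the knockouts.

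Of 8 receptors of the ligands 3 could be tested. SIRPA, the receptor of CD47, fell with etoposide in WT cells (log2 -0.84 and -1.25, edgeR adjusted p = 1.77e-05 and 1.35e-06). In control it was higher in DAXX_KO (0.39 ± 0.12, edgeR adjusted p = 0.00862) and lower in ATRX_KO (-1.17 ± 0.15, edgeR adjusted p = 5.91e-06). PD-1 (PDCD1) and NKG2D (KLRK1) were at or below 0.599 CPM in all libraries. Among 10 regulators of PD-L1, 3 were higher and 3 lower in DAXX_KO control (beside 26.7% and 26.6% of all genes) and 3 higher and 4 lower in ATRX_KO control (beside 20.8% and 21%). IFNGR2, a subunit of the interferon gamma receptor, fell (-0.69 ± 0.12 and -0.87 ± 0.14, edgeR adjusted p = 0.000101 and 6.87e-05), and CMTM4, which stabilizes PD-L1, rose (0.61 ± 0.19 in each, edgeR adjusted p = 0.00912 and 0.0144). The kinase gene JAK1 rose in ATRX_KO control (0.65 ± 0.07, edgeR adjusted p = 1.04e-06). With etoposide STAT3, a transcription factor of cytokine signaling, rose (1.24, 0.77, 1.2 and 0.65) and IFNGR2 fell (-1.23, -0.61, -1.4 and -0.67) in DAXX series WT, DAXX_KO, ATRX series WT and ATRX_KO cells, each called. Of 4 enzymes that release ligands from the surface, MMP14 was higher in both knockouts in control (1.51 ± 0.09 and 0.93 ± 0.1, edgeR adjusted p = 1.18e-10 and 1.24e-06), while PDIA6 was lower in DAXX_KO control (-0.41 ± 0.07, edgeR adjusted p = 4.96e-05) and ADAM17 higher in ATRX_KO control (0.54 ± 0.07, edgeR adjusted p = 1.3e-05). ADAM17 rose and ADAM10 fell with etoposide in each genotype (ADAM17 0.83, 0.49, 1.02 and 0.41, and ADAM10 -0.99, -0.9, -0.88 and -0.66, in the order above). QPCTL, which modifies CD47 for SIRPA binding, was higher in DAXX_KO control (1.18 ± 0.18, edgeR adjusted p = 1.73e-05), and the ATRX_KO control value was 0.68 and not called.

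Across the 8 group means of log2 CPM, the genes most like CD70 among 11787 genes were AP5S1 (Pearson r = 0.988), BCLAF3 (0.986) and PTGES (0.983), and those most like CD274 were WDR70 (0.994), TMEM214 (0.969) and INO80D (0.959). These are descriptions over 8 points that share libraries, and a like pattern is not a like size of change. The range over the groups on the log2 scale was 0.86 for AP5S1, 1.55 for BCLAF3, 7.13 for PTGES and 0.69 for WDR70. The group means of CD70 itself ran from 4.77 to 148 CPM. Among the members the highest likeness was between ULBP1 and ULBP2 (r = 0.856), MICA and ULBP2 (0.842) and MICA and ULBP1 (0.791), while MICA and MICB were at 0.168 and CD274 and PDCD1LG2 at 0.331. CD70 and CD47 were at -0.669. The 60 tested neighbors of CD70 on chromosome 19 had a median knockout effect of 0.06 in DAXX_KO and 0.09 in ATRX_KO control, and 0.41 and 0.33 with etoposide in WT cells, against 4.01, 2.49, 2.33 and 2.41 for CD70. With etoposide in the knockouts the neighbor medians were 0.48 in DAXX_KO and 0.33 in ATRX_KO cells, against 0.96 and 0.46 for CD70. For ULBP1 the neighbors on chromosome 6 had medians of -0.18 and 0.22 with etoposide in WT cells.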

How the data were processed

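RNA of U87-T cells was sequenced by the authors as single-end reads of 75 bases from QuantSeq 3′ mRNA libraries, aligned to hg19 with STAR and quantified with RSEM over Ensembl gene models, per the labels and the methods of the study. The deposited values are expected counts, given as whole numbers, so rounding left them as they were. Of 57736 gene IDs, 55501 (98.78% of the counts) were matched to symbols and positions of GENCODE release 44 lifted to GRCh37.

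Libraries were grouped by their titles. Each series entered 1 model of 12 libraries and 4 groups with edgeR 4.0.16 in R 4.3.3 (TMM scaling, filterByExpr at 10 counts per library and 15 in total, quasi-likelihood F-test, 2-sided), and the difference between the knockout effects in 1 model of 24 libraries. P-values were adjusted by Benjamini-Hochberg over all genes tested (15247 for DAXX, 16371 for ATRX, 16674 over both series) and called at an FDR of 0.05. Fold changes are those of the fit, with standard errors from its F statistic. The DAXX series had a common biological coefficient of variation of 0.0825, the ATRX series of 0.106. The script was tested on counts simulated from its own model, which checks the code and not the spread of these libraries. The replicate numbers did not pair libraries: 36 correlations of same-numbered libraries lay between -0.209 and 0.0511. No replicates agreed within sampling noise.

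The members, the lists of related genes and the tests were chosen with earlier results of these data known. All members are named in each comparison; of each list, the genes named are those with the 2 largest changes among the called genes of a comparison described, with TNFSF9 and CMTM4 in ATRX_KO control, IFNGR2 in DAXX_KO and NECTIN3 and ADAM17 in ATRX_KO with etoposide, and genes given for their low level added after their values were seen. Likeness is the Pearson correlation over 8 group means of log2 CPM (prior count 2) among genes with at least 5 CPM in a group. Neighbors are up to 30 tested genes on each side. Alternatives were DESeq2 1.42.0, RLE size factors, library totals, other filters, 2 groups only, all 24 libraries, the replicate block, centring on neighbors and leaving out each library. Promoters came from RefSeq, and shared stretches of 75 bases were searched in the last 500 bases of GENCODE transcripts. Chromatin data of the study were not used here.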

Additional observations from a re-analysis of the deposited data

Results flagged for a closer look

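These results were singled out because 2 groups answered the same contrast differently, by a test of the difference itself (edgeR, p adjusted over all genes). Between DAXX_KO and WT cells the log2 response to etoposide differed for CD70 (-1.38, adjusted p = 1.76e-05), CD47 (0.46, adjusted p = 0.00545), MICB (0.66, adjusted p = 0.0116), PVR (0.52, adjusted p = 0.0147) and MICA (0.48, adjusted p = 0.0286), where positive values mean a higher log2 response in the knockout, not a higher level. Between ATRX_KO and WT cells it differed for CD70 (-1.94, adjusted p = 0.000879), ULBP1 (-0.83, adjusted p = 0.00158) and CD47 (0.4, adjusted p = 0.0288).

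Between the knockouts, the DAXX_KO effect minus the ATRX_KO effect in control was -1.15 for PVR (adjusted p = 7.2e-07), -0.89 for ULBP1 (adjusted p = 0.000179), 1.52 for CD70 (adjusted p = 0.000795), -1.19 for CD274 (adjusted p = 0.00109), 0.4 for CD47 (adjusted p = 0.0048) and -0.45 for MICB (adjusted p = 0.0314). With etoposide it was 2.06 for CD70 (adjusted p = 3.77e-07), -1.64 for PDCD1LG2 (adjusted p = 0.00138), 0.44 for CD47 (adjusted p = 0.00338), 0.48 for MICA (adjusted p = 0.00541) and -0.51 for PVR (adjusted p = 0.00684). Centred on their neighbors, the differences with etoposide moved by over 1.5 times for PVR (-0.51 to -0.28) and CD47 (0.44 to 0.71). The series were separate sets of libraries, each with its own WT cells, so a difference of knockout effects compares 2 clones.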

How the results depend on the processing

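In each of the 12 comparisons the count of members called stayed within 1.5 times the reported count under every alternative run, and leaving out a single library moved no count by more than 1. Depth limits PDCD1LG2 (12 to 113 counts in a library), CD274 (27 to 128) and ULBP2 (39 to 160) most.

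With the replicate block CD70 in ATRX_KO against WT with etoposide lost its call (0.53, adjusted p = 0.0501), CD274 in DAXX_KO was 0 with etoposide against control, the calls for ATRX_KO with etoposide fell from 7 to 6, and no other call of a member changed. Same-numbered libraries correlated at -0.209 to 0.0511.

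Apart from PVR centred on its neighbors, the values that changed sign were not called under the reported fit, and the cause was not tested. Against WT, library totals gave 0.11 (MICA, DAXX_KO control), 0 (MICA, ATRX_KO etoposide) and 0.05, 0.03 and 0.07 (PDCD1LG2, PVR and ULBP2, DAXX_KO etoposide). They gave etoposide responses of -0.10 and -0.06 (CD274 and CD276, DAXX_KO), 0.06 (MICB, ATRX_KO) and 0 (MICB, DAXX series WT), and interactions of -0.05 and -0.08 (CD274 and CD276, DAXX series) and 0.02 (PDCD1LG2, ATRX series). A minimum of 10 counts in every library gave 0.02 (CD274, DAXX series WT response), -0.01 (CD276, DAXX interaction), 0.05 and 0.06 (MICB response in ATRX_KO and DAXX series WT). The same MICB responses were 0 and 0.01 under DESeq2, 0.01 and 0.02 with RLE size factors and 0 and 0.02 with only the 2 groups compared. With all 24 libraries in 1 model the PDCD1LG2 interaction in the ATRX series was 0.01. Centred on its neighbors, the called rise of PVR with etoposide turned to -0.10 in ATRX_KO and -0.22 in WT cells of the ATRX series, by construction, since the neighbors rose more. Within a series, centring moved other called values by over 1.5 times but kept their sign. These were DAXX_KO responses of CD70 (0.96 to 0.47), CD47 (-0.31 to -0.07) and PVR (0.62 to 0.4). WT responses of MICA moved too (DAXX series 0.38 to 0.09, ATRX 0.53 to 0.35). Against WT, MICA moved in DAXX_KO etoposide (0.41 to 0.27) and PVR in ATRX_KO control (0.58 to 0.36). Differences of knockout effects are given above. The uncalled CD70 response in ATRX_KO went from 0.46 to 0.13.

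Leaving out single libraries turned the sign of DAXX_KO against WT for MICA (-0.15 to 0.01) and MICB (-0.01 to 0.21) in control and for PDCD1LG2 (-0.13 to 0.11), PVR (-0.15 to 0.05) and ULBP2 (-0.15 to 0.16) with etoposide, and of ATRX_KO against WT for CD274 (-0.05 to 0.12) and MICA (-0.14 to 0.02) with etoposide. It turned the response of WT cells of the DAXX series for CD274 (-0.14 to 0.10), CD276 (-0.02 to 0.06), MICB (-0.08 to 0.15) and PDCD1LG2 (-0.44 to 0.03), that of DAXX_KO for CD274 (-0.28 to 0.15) and that of ATRX_KO for MICB (-0.11 to 0.05). It also turned the interactions of CD274 (-0.22 to 0.21) and CD276 (-0.01 to 0.07) in the DAXX series and of PDCD1LG2 (-0.24 to 0.22) and ULBP2 (-0.51 to 0.02) in the ATRX series, and the MICB difference of knockout effects with etoposide (-0.06 to 0.12).

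Calls also moved elsewhere. CD70 in ATRX_KO with etoposide against control passed with at least 10 counts in every library (0.52, adjusted p = 0.0367), library totals (0.53, adjusted p = 0.038) and no filter (0.43, adjusted p = 0.00131), and without ATRX_KO control replicate 3 or etoposide replicates 2 or 3 (0.6, 0.6 and 0.63). PVR there lost its call with no filter (0.23, adjusted p = 0.0512) and with only the 2 groups (0.28, adjusted p = 0.0807). PDCD1LG2 in WT cells of the ATRX series lost its call with at least 10 counts (-0.57, adjusted p = 0.0559), no filter (-0.68, adjusted p = 0.0681) and only the 2 groups (-0.63, adjusted p = 0.089). ULBP2 in DAXX_KO lost its response with all 24 libraries (0.5, adjusted p = 0.101) and library totals (0.4, adjusted p = 0.0851), and against WT it passed in ATRX_KO with etoposide with no filter (-0.51, adjusted p = 0.0233). The ATRX interaction of CD274 passed with at least 10 counts (-0.63, adjusted p = 0.0491) and without ATRX_KO etoposide replicate 3 (-0.73, adjusted p = 0.0456). Without DAXX_KO etoposide replicate 2, CD274 was called in DAXX_KO with etoposide (-0.74, adjusted p = 0.0172) and in the difference of knockout effects there (-0.81, adjusted p = 0.0217), and without replicate 1 these were -0.31 and -0.38.

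On library totals the calls over all genes split differently, as 793 higher and 1359 lower in place of 1277 and 883 for the DAXX interaction, 4684 and 3091 in place of 3767 and 3751 for ATRX_KO with etoposide, and 3559 and 2114 in place of 2827 and 2866 for the difference of knockout effects in control. The median of all genes moved by over 0.1 (log2) for DAXX_KO in control (from 0.016 to 0.201), the DAXX_KO response (from -0.004 to -0.109), the DAXX interaction (from 0.015 to -0.096) and the difference of knockout effects in control (from -0.004 to 0.115).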
